A study of Mus musculus with 27 samples.

Results

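The 7 genes described here encode the machinery that shows exogenous peptides on MHC class II molecules: H2-Aa, H2-Ab1, H2-Eb1, H2-DMa, H2-DMb1, Cd74 and Ciita. They were chosen by symbol, and all 7 were found among the 17655 genes listed in any of the 4 tables and were measured in each of the 27 mouse liver libraries. MHC class II molecules are alpha and beta chain pairs that are assembled with the invariant chain CD74, travel to endosomes, exchange a fragment of the invariant chain for a peptide with the help of H2-DM, and are recognized at the cell surface by CD4+ T cells. Their genes are switched on together by CIITA, which does not bind DNA itself but docks on the RFX, CREB and NF-Y proteins at the X and Y boxes of class II promoters, and which interferon gamma induces in many cell types. In the liver, dendritic cells, B cells, Kupffer cells and monocyte-derived macrophages carry most class II, whereas resting hepatocytes carry little.

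The study asked how loss of the histone demethylase KDM5B affects alcohol-associated liver disease and its resolution. All mice were Kdm5b fl/fl, and each received an AAV8 vector: AAV8-control (WT), AAV8-CMV-Cre with a general promoter (KO) or AAV8-TBG-Cre with a hepatocyte promoter (HepKO). Livers were taken on western diet plus ethanol-containing water (WDA), labelled as 8 weeks of WDA with the vector, or after 16 weeks of WDA, the vector and 4 weeks of resolution (Res). WT and KO had 3 females and 3 males at each stage, and HepKO had 3 females on WDA only. Ages were not given in the labels, all WDA libraries came from experiment 11 and all Res libraries from experiment 12, so stage and experiment cannot be told apart. Stage cannot be told apart from length of WDA either, at 8 against 16 weeks. The labels list the vector before WDA for WDA livers and after it for Res livers. The paper describes resolution as a chow diet with plain water, so diet changed along with alcohol. Each library was 1 mouse, named below by its number within its experiment.

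Libraries held 14634602 to 19388251 counts, and the summed CPM (counts scaled to library depth by the TMM method) of 6 hepatocyte markers was 74643 to 171103. Kdm5b, the targeted gene, was 20.3 to 21.8 CPM in KO against 23.7 to 24.6 CPM in WT WDA males, 10.6 to 13 against 16.6 to 17.8 CPM in Res females and 7.89 to 17.4 against 18.8 to 19.6 CPM in Res males. In these 3 of 4 groups every KO library lay below every WT library, whereas in WDA females, at 14.4 to 24.3 against 21.5 to 31.0 CPM, they overlapped. Lower without overlap in the same 3 comparisons were 1191 of 12419, 1767 of 12577 and 316 of 12620 genes. The difference between KO and WT passed the test in 0 of 4 (edgeR quasi-likelihood test, adjusted p of 0.109 or more). In HepKO WDA females Kdm5b was 8.27 to 17.6 CPM, below all WT WDA females, and did not pass either (log2 difference -0.98, edgeR, adjusted p = 0.347). In 5 libraries the summed CPM of 6 cholangiocyte markers was 156 to 529 against 16.6 to 105 in the other 22: WT WDA female 7, KO WDA male 17, WT Res female 13, KO Res male 5 and WT Res male 9. They are called marker-rich below, by a limit of 150 CPM chosen after the values were seen. Most of the sum was Spp1, which is on the recruited macrophage list too, and the monocyte and recruited macrophage sum was also higher in them, at 369 to 1230 CPM against 95.7 to 288. By the summed CPM of the 7 members, these 5 libraries ranked 1, 2, 3, 4 and 9 of 27. Fits without them therefore also leave out the livers highest in the members. The library labelled KO Res male 5 went against its sex label in part: it had 433 CPM of the female-biased Cyp3a41a against 0 to 19.5 in the 11 other males, whereas its Y-linked Ddx3y, at 38.4 CPM, was below the other males (47.1 to 80.8) but far above the 15 females (0 to 0.52).

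H2-Aa (17:34282744-34287823), H2-Ab1 (17:34263227-34269418), H2-Eb1 (17:34305867-34316674), H2-DMa (17:34119693-34139101) and H2-DMb1 (17:34153191-34160229) lie together on chromosome 17 of GRCm38.p6, in RefSeq coordinates, whereas Ciita is at 16:10480014-10531064. RefSeq promoter entries were found for 4 of the 7 members. The 120 bases before the annotated start of 3 of them are shown because they hold the letters of the sites where CIITA's partners are known to bind. Capitals mark the core of the X box, searched as AACNNATG, and of the Y box, searched as TGATTGG, on both strands over the 250 bases before the start. The windows are chr17:34287824-34287943 on the minus strand, chr17:34305747-34305866 on the plus strand and chr17:34153071-34153190 on the plus strand.
H2-Aa: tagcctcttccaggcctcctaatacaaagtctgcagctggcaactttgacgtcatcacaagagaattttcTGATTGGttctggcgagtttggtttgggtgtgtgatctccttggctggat
H2-Eb1: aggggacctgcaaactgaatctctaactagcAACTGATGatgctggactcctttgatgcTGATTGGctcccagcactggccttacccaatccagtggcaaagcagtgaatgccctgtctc
H2-DMb1: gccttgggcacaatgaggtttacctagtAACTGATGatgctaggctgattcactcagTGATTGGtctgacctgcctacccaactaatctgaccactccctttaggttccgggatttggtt

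In H2-Eb1 the X core began 89 bases and the Y core 61 bases before the start, and in H2-DMb1 they began 92 and 63 bases before it. H2-Aa held the Y core, 50 bases before the start, without these X letters, and both entries of H2-DMa held neither. The promoters of H2-Ab1, Cd74 and Ciita were not analysed here. The Y core was found in 7.23% of 32851 promoter entries and the X core in 7.71%, while an X core followed by a Y core within 30 bases was found in 16 entries, or 0.0487%. Those 16 belonged to 16 genes, 5 of them class II genes (H2-DMb1, H2-DMb2, H2-Eb1, H2-Eb2 and H2-Ob). The class I gene H2-M10.4, also on chromosome 17, was among the 16 too. Of the class I genes looked at, H2-K1 and B2m held neither core and H2-D1 held the Y core on the other strand. Both motifs were chosen after these sequences had been read, and a match is a description of letters.

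**Figure D1:**
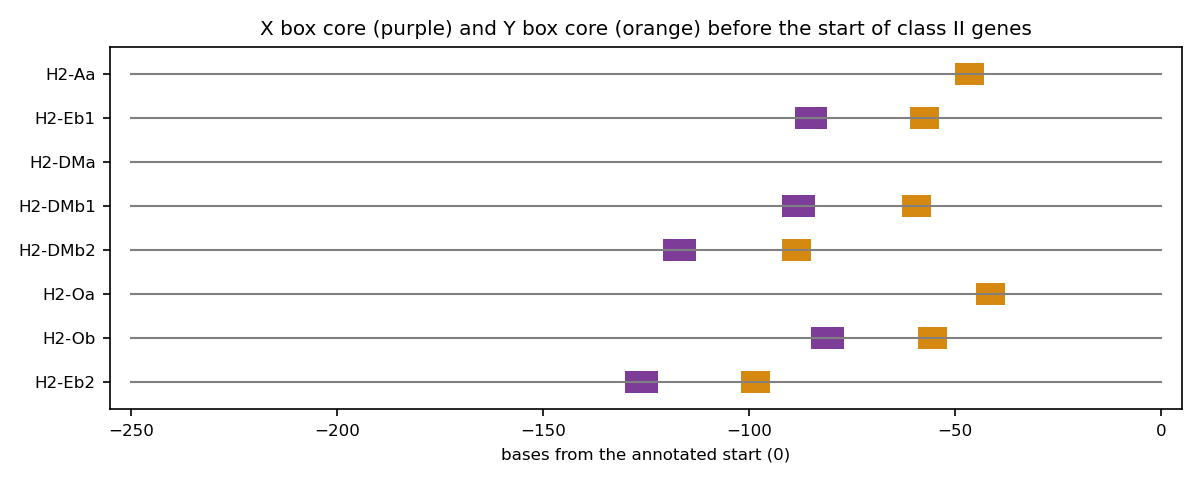
Position of the X box core (purple) and Y box core (orange) in the 250 bases before the annotated start (x axis, bases) of 8 MHC class II genes (y axis). H2-Eb1, H2-DMb1, H2-DMb2, H2-Ob and H2-Eb2 hold both cores in the same order, H2-Aa and H2-Oa the Y core alone, and H2-DMa neither.

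Cd74 (18:60803849-60812652), the invariant chain and chaperone, was the most abundant member, with a median of 99.9 FPKM (fragments scaled by gene length and depth, which allows genes of different length to be compared) over the 27 libraries. The classical chains followed, at medians of 62.2 FPKM for H2-Aa and 42.9 FPKM for H2-Ab1, the alpha and beta chains of I-A, and 18.7 FPKM for H2-Eb1, the beta chain of I-E. H2-DMb1 and H2-DMa, the chains of the peptide-exchange factor, had medians of 5.48 and 4.12 FPKM, and the coactivator gene Ciita had 0.41 FPKM. Cd74 made up 37.8 to 47.9% of the summed FPKM of the members in each library and H2-Aa 22.4 to 30.3%, ranges that do not meet, so the order of these 2 was the same in all 27 livers. Ciita rested on 20 to 237 counts per library, the fewest of the members.

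The level of every member varied widely between livers. Highest over lowest CPM was 10.3-fold for H2-Aa, 12.3-fold for H2-Ab1 and H2-Eb1, 7.78-fold for Cd74, 8.82-fold for Ciita, 6.70-fold for H2-DMb1 and 4.56-fold for H2-DMa. WT WDA female 7 or KO WDA male 17 was the highest library for each member, and a HepKO library was the lowest for each. Ordered by the median summed CPM of the 7 members, the groups ran from HepKO WDA females (151, range 98.2 to 158) through WT WDA females (169, 162 to 883), KO WDA females (189, 154 to 226), WT WDA males (213, 178 to 232), WT Res females (292, 195 to 508), KO Res females (296, 276 to 362), WT Res males (349, 331 to 454) and KO WDA males (385, 269 to 832) to KO Res males (472, 230 to 553). Each group's range overlapped that of its neighbour in this order, except that HepKO WDA females and WT WDA females did not meet.

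**Figure D2:**
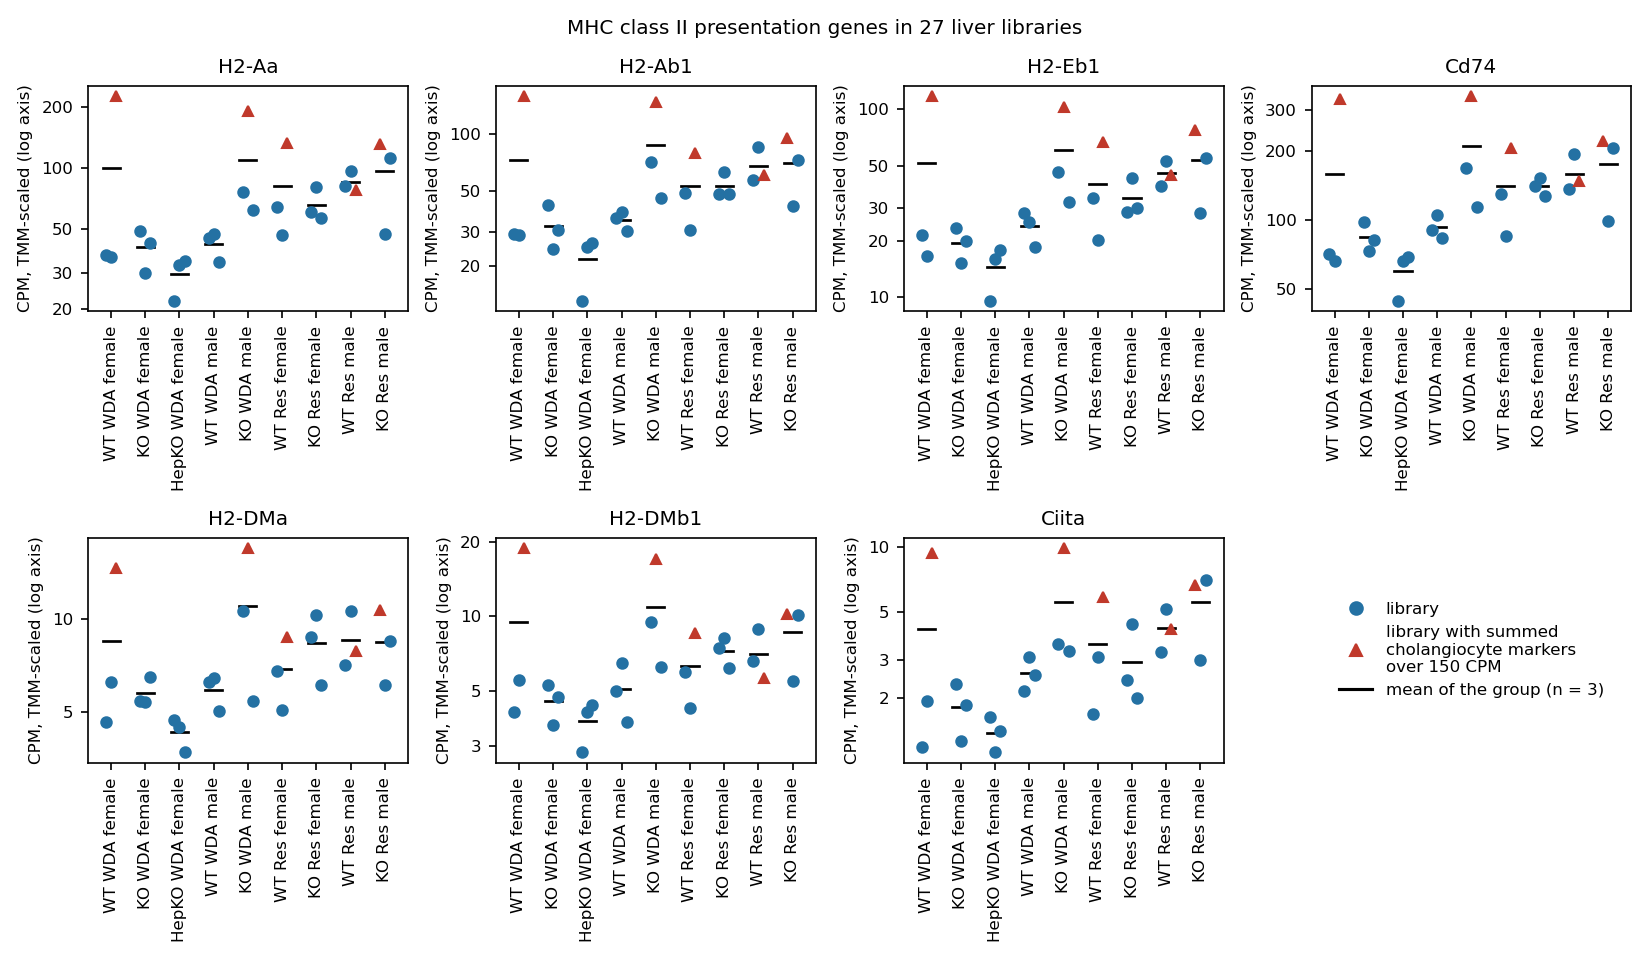
CPM (log axis) of each member in the 9 groups (x axis), 1 panel per gene; points are libraries, red triangles the 5 marker-rich libraries and lines the group means (n = 3). WT WDA female 7 and KO WDA male 17 lie far above their groupmates in every panel, with H2-Aa at 226 and 191 CPM.

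The members rose and fell together across livers. Over the 21 pairs of members, Pearson's r of log2 CPM was 0.852 (H2-DMa and Ciita) to 0.988 (H2-Ab1 and Cd74) over 27 libraries, with a median of 0.922, and 0.815 to 0.986 for deviations from the group means. Over the 22 libraries that were not marker-rich it was 0.720 to 0.981. These points share libraries and their scaling, and the values are descriptions. The size of the swing differed between roles: per unit of the mean log2 CPM of the members, H2-Eb1 moved by 1.21, H2-Aa by 1.14, H2-Ab1 by 1.12, Ciita by 1.07, Cd74 by 0.99, H2-DMb1 by 0.81 and H2-DMa by 0.62. The CPM ratio of the I-A chains, H2-Aa to H2-Ab1, stayed between 1.15 and 1.82, whereas the ratio of H2-DMa to H2-Aa ran from 0.0370 to 0.125.

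H2-DMa and H2-DMb1 are less certain than the rest. H2-DMb1 shares 27.2% of its 50-base stretches with its neighbour H2-DMb2, its deposited count was whole in 1 of 27 libraries, and the sum of both genes was whole in 25 of 27 (within 0.005), so reads were divided between them. The count of H2-DMa was whole in 10 of 27 libraries, and the counts of the classical chains, Cd74 and Ciita were whole in all 27. Strand was not given for the counting, and H2-DMa and H2-Eb1 each overlap an annotated gene on the other strand.

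The first question was whether class II transcripts differ between WDA and Res livers, which also differ in experiment, length of WDA and diet. In WT males class II transcripts were higher after resolution, by 1.73- to 2.04-fold for H2-Aa, H2-Ab1, H2-Eb1 and Cd74. H2-Aa was 45.0, 47.2 and 34.1 CPM in WT WDA males 19, 20 and 21 (42.1 ± 6.99, SD, n = 3) and 81.1, 97.0 and 77.7 CPM in WT Res males 7, 8 and 9 (85.3 ± 10.3, SD, n = 3). All 3 Res libraries lay above all 3 WDA libraries, and male 9, a marker-rich library, was the lowest of the Res livers. Cd74 was 90.2, 105 and 83.4 CPM on WDA and 137, 194 and 148 CPM after resolution, again without overlap. In log2 terms, edgeR's quasi-likelihood test gave a difference of 1.03 (SE 0.14, adjusted p = 0.00756) for H2-Aa, 0.97 (SE 0.16, adjusted p = 0.0128) for H2-Ab1, 0.95 (SE 0.17, adjusted p = 0.0173) for H2-Eb1 and 0.79 (SE 0.15, adjusted p = 0.0179) for Cd74. Thus 4 of 7 members were called higher, where 11.0% of the 12408 genes tested were called in either direction. H2-DMa (0.54, adjusted p = 0.0996), Ciita (0.70, adjusted p = 0.0913) and H2-DMb1 (0.48, adjusted p = 0.209) did not pass. The median of the members was 0.79, beside 0.02 for all genes, and 6 of 7 did not overlap between the groups, H2-DMb1 being the exception, where 16.6% of genes were higher without overlap.

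KO females also had higher class II levels after resolution, 1.63- to 1.76-fold for 5 members. H2-Aa was 48.9, 30.2 and 42.5 CPM in KO WDA females 1, 2 and 3 (40.5 ± 9.48, SD, n = 3) and 60.2, 80.8 and 56.3 CPM in KO Res females 2, 3 and 4 (65.8 ± 13.2, SD, n = 3). Cd74 was 98.2, 73.5 and 82.2 CPM on WDA and 140, 153 and 128 CPM after resolution. For both genes the lowest Res library lay above the highest WDA library. The log2 difference was 0.72 (SE 0.19, adjusted p = 0.0263) for H2-Aa, 0.73 (adjusted p = 0.0257) for H2-Ab1, 0.82 (adjusted p = 0.0201) for H2-Eb1, 0.70 (adjusted p = 0.0322) for H2-DMb1 and 0.75 (SE 0.13, adjusted p = 0.00517) for Cd74 in edgeR's test. These 5 of 7 were called higher, where 20.4% of 12470 genes were called, and the same 5 did not overlap between the groups, where 18.5% of genes were higher without overlap. H2-DMa (0.55, adjusted p = 0.0867) and Ciita (0.72, adjusted p = 0.169) did not pass. The median of the members was 0.72, beside 0.01 for all genes.

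Both calls depended on how the spread was estimated. With 1 spread shared by all 9 groups, the log2 difference of H2-Aa stayed at 1.01 in WT males and 0.72 in KO females, but 0 of 7 members passed in either. Leaving out WT WDA male 20 or 21 left 1 of 7 members called in WT males, H2-Aa; leaving out KO WDA female 2 or KO Res female 3 left 1 of 7 in KO females, Cd74, and without KO Res female 2 or KO WDA female 3 the counts were 2 and 3.

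In WT females and KO males the same comparison gave no call (edgeR, 0 of 7 members and 0% of 12603 and 12747 genes, although 13.6% and 6.43% of genes had an unadjusted p under 0.05, and 0 members did). Members differed by -0.62 to -0.19 (log2) in WT females and by -0.39 to -0.01 in KO males. Each of these WDA groups held one of the highest libraries of all. H2-Aa was 37.1, 36.4 and 226 CPM in WT WDA females 5, 6 and 7 against 64.3, 46.5 and 133 CPM in WT Res females 1, 12 and 13. It was 76.2, 191 and 62.1 CPM in KO WDA males 16, 17 and 18 against 132, 46.9 and 111 CPM in KO Res males 5, 6 and 11. Without the marker-rich libraries the members differed by 0.08 to 0.64 in WT females (2 Res and 2 WDA libraries) and by -0.14 to 0.54 in KO males, still with 0 of 7 called. Whether the stage difference itself differed between the sexes was tested after these values had been seen. In WT the female minus male difference of the log2 change was -1.42 to -0.85, with 0 of 7 members called (edgeR, adjusted p of 0.743 or more, 0.00760% of 13152 genes called), and in KO it was 0.74 to 1.06, also with 0 of 7 called (adjusted p of 0.630 or more, 0% of 13036 genes). The 1 member with an unadjusted p under 0.05 was H2-DMb1 in KO, beside 7.90% of genes there.

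Over the 24 WT and KO libraries together, with sex and vector in the fit, 0 of 7 members were called (edgeR, log2 difference -0.06 to 0.17, adjusted p of 0.686 or more, 0 with an unadjusted p under 0.05), although 28.5% of 13519 genes were. Without the 5 marker-rich libraries the stage difference was 0.32 to 0.66 and 5 of 7 were called higher, with H2-Aa at 0.66 (SE 0.15, adjusted p = 0.00165), Cd74 at 0.61 (SE 0.13, adjusted p = 0.00152) and Ciita at 0.64 (SE 0.19, adjusted p = 0.0111), where 37.7% of genes were called. H2-DMb1 (0.38, adjusted p = 0.0530) and H2-DMa (0.32, adjusted p = 0.0970) did not pass. The 5 libraries left out ranked 1, 2, 3, 4 and 9 of 27 by class II sum, so these calls are not independent of the class II values. Leaving out WT WDA female 7 alone gave 2 calls, H2-Aa and Cd74. In the fit without them, the markers called higher after resolution were 6 of 9 for T and NK cells, 5 of 8 for B cells, 4 of 8 for Kupffer cells, 3 of 9 for dendritic cells and 3 of 10 for monocytes and macrophages. Over all 24 libraries these counts were 6 of 9, 5 of 9, 1 of 8, 1 of 10 and 0 of 10 in the same order. Without the marker-rich libraries, 3 of 6 hepatocyte and 2 of 6 sinusoidal markers were called higher too. The same held for 1 of 6 stellate cell and 1 of 6 cholangiocyte markers, while 1 of 4 plasma cell markers rose and 1 fell. The shares for dendritic cells and for monocytes and macrophages were below the 37.7% of all genes called there. The part of these cells in the class II values was not tested.

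**Figure D3:**
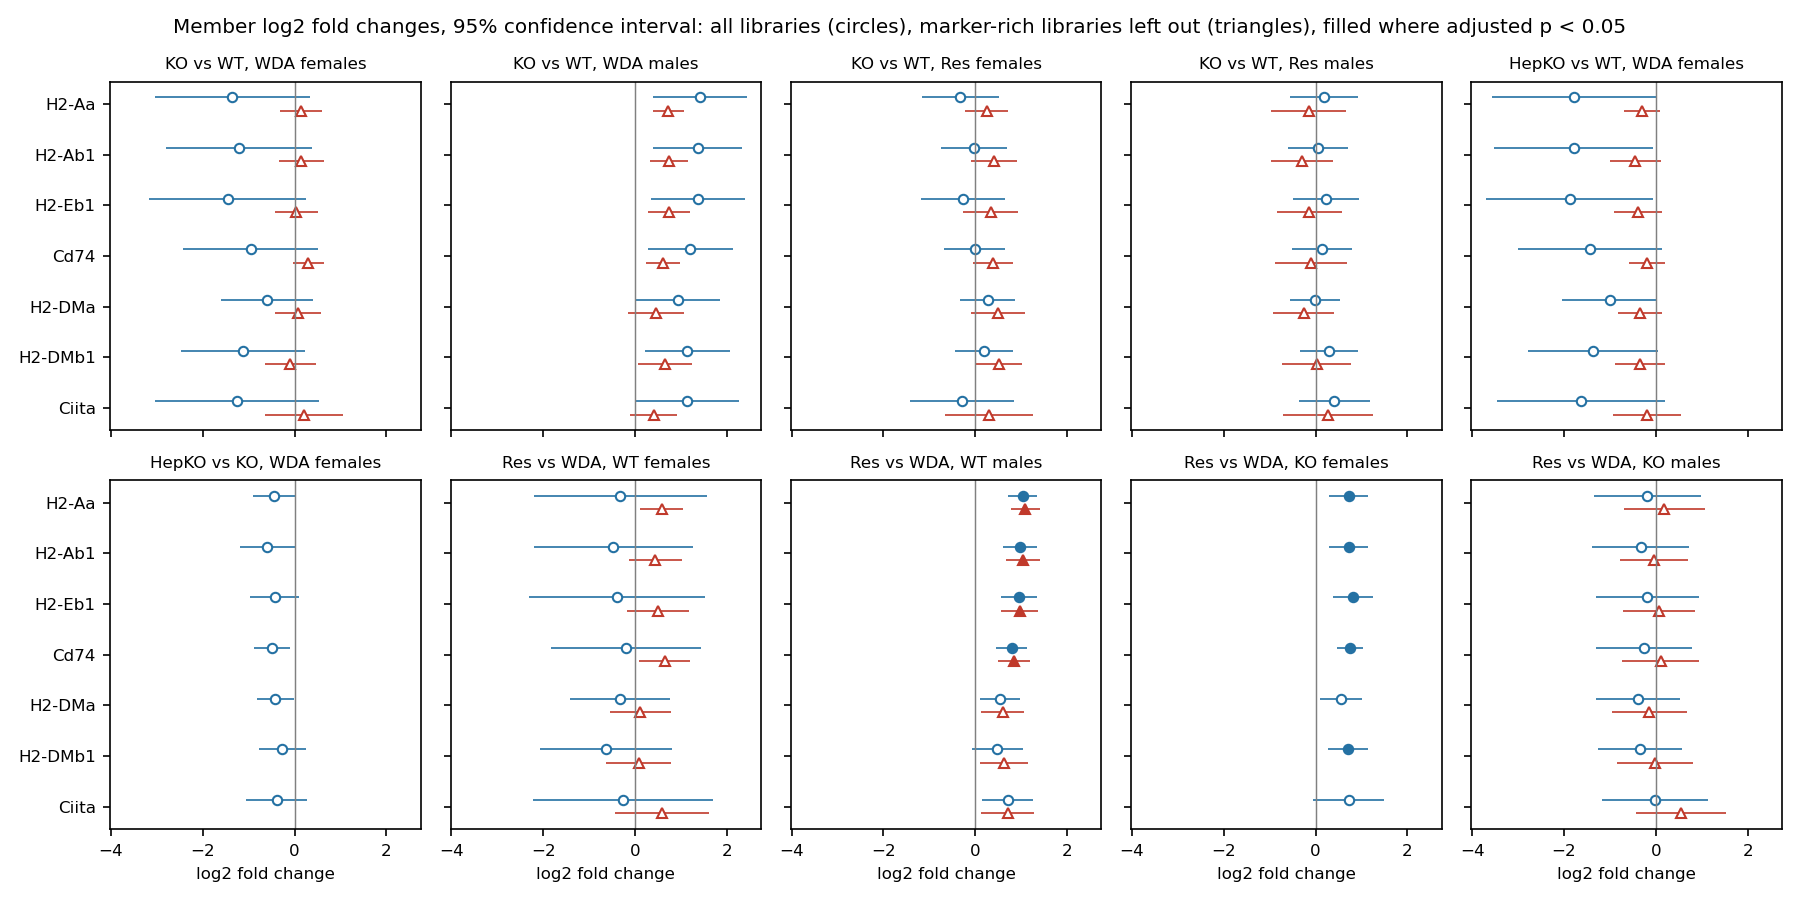
Log2 fold change (x axis) of each member (y axis) with its 95% confidence interval in 10 comparisons of 2 groups, from all libraries (blue circles) and without the marker-rich libraries (red triangles); filled symbols have an adjusted p under 0.05. Filled symbols appear in the resolution comparisons of WT males (4 members) and KO females (5 members), and the WDA female comparisons against WT move toward 0 when female 7 is left out.

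Next, females were compared with males over the same 24 libraries. All 7 members were lower in females by 0.18 to 0.52 (log2), with 0 of 7 called (edgeR, adjusted p of 0.409 or more, 0 with an unadjusted p under 0.05), where 9.20% of 13519 genes were called. Without the marker-rich libraries 5 of 7 were called lower in females, among 17.7% of genes: Ciita fell by 0.82 (SE 0.19, adjusted p = 0.00637), H2-Eb1 by 0.61, H2-Ab1 by 0.51, Cd74 by 0.49 and H2-Aa by 0.48. H2-DMb1 (-0.40, adjusted p = 0.0858) and H2-DMa (-0.24, adjusted p = 0.296) did not pass. As for stage, this fit leaves out the livers highest in the members, so its calls are not independent of the class II values. In the same fit 5 of 10 monocyte and macrophage markers (median -0.80), 2 of 9 dendritic cell markers and 1 of 9 T and NK cell markers were called lower in females, with 0 of 8 B cell, 0 of 8 Kupffer cell and 0 of 6 cholangiocyte markers (median -0.63), and their part in the class II difference was not tested. Without WT WDA female 7 alone, 1 member, Ciita, was called.

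KDM5B loss was the study's main question, and no member was called in any comparison of vectors. In WDA males, all 7 members were higher in KO, by 0.93 to 1.42 (log2), and each had an unadjusted p under 0.05, as 7.71% of genes did, but the adjusted p was 0.588 for each (edgeR, 0% of 12419 genes called). H2-Ab1 was 70.9, 148 and 45.5 CPM in KO WDA males 16, 17 and 18 against 35.9, 38.6 and 30.6 CPM in WT WDA males 19, 20 and 21. The KO libraries lay above all WT libraries for H2-Aa, H2-Ab1, H2-Eb1, Cd74 and Ciita, 5 of 7 members, where 7.12% of genes were higher without overlap. Without KO male 17 the difference was 0.41 to 0.75, with an unadjusted p under 0.05 for 5 of 7 members and an adjusted p of 0.303 or more.

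In WDA females the direction was the opposite, and it rested on 1 library. KO lay below WT by 0.60 to 1.46 (log2) with 0 of 7 members called (edgeR, adjusted p = 0.978 for each; 0 members and 3.11% of genes had an unadjusted p under 0.05; 0% of 12397 genes called). The WT group held female 7, in which members were 2.66 to 6.18 times the mean of their groupmates. Without it the differences were -0.09 to 0.30, and 6 of 7 members changed sign. The difference between the sexes in the KO effect on WDA, tested after these values had been seen, was -2.81 to -1.50 (female minus male). Each member had an unadjusted p under 0.05 (edgeR, 0.0129 to 0.0354), as did 11.4% of genes, but 0 of 7 were called (adjusted p = 0.430, 0% of 12895 genes). Without the marker-rich libraries it was -0.74 to -0.20, and 1 member had an unadjusted p under 0.05.

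After resolution no member set KO apart from WT. Members differed by -0.32 to 0.27 (log2) in females and by -0.01 to 0.41 in males, with 0 of 7 called and 0 with an unadjusted p under 0.05 in either (edgeR, 0% of 12577 and 12620 genes called, 19.2% and 1.45% with an unadjusted p under 0.05). Cd74 was 140, 153 and 128 CPM in KO Res females against 130, 85.1 and 205 CPM in WT Res females 1, 12 and 13. Without marker-rich WT Res female 13 all 7 members were higher in KO females, by 0.25 to 0.51 (median 0.39, beside -0.02 with it), still with 0 of 7 called. Without KO Res male 5 and WT Res male 9 the members differed by -0.30 to 0.27 in males. With both sexes in the fit, members differed by -0.03 to 0.17 on WDA and by -0.06 to 0.25 after resolution, again with 0 of 7 called and 0 with an unadjusted p under 0.05 (edgeR, 0% of 12895 and 13178 genes). Without the marker-rich libraries all 7 were higher in KO at both stages, by 0.27 to 0.46 on WDA and 0.06 to 0.28 after resolution. There 4 of 7 on WDA and 0 of 7 after resolution had an unadjusted p under 0.05, and 0 of 7 were called in either (edgeR, 0% of 12770 and 12902 genes). The KO effect did not pass a test of its difference between the sexes after resolution (-0.69 to 0.29, or 0.056 to 0.78 without the marker-rich libraries, 0 of 7 called in both, 0% of 13178 genes) or between the stages (-0.06 to 0.25, 0 of 7 called, 0% of 13519 genes), with 0 members at an unadjusted p under 0.05 in both.

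HepKO livers had the lowest class II levels, but not by a margin that passed. Against WT WDA females, the same controls as in the KO comparison, members were lower by 1.01 to 1.88 (log2), 3 of 7 had an unadjusted p under 0.05 (as 10.1% of genes did) and 0 of 7 were called (edgeR, adjusted p of 0.492 or more, 0% of 12413 genes). H2-Aa was 22.0, 33.2 and 34.4 CPM in HepKO females 13, 14 and 15, just under the WT minimum of 36.4 CPM. H2-Aa and H2-Ab1, 2 of 7 members, lay wholly below WT, where 8.50% of genes did. Without WT female 7 the members differed by -0.44 to -0.18 and 0 of 7 were called, among 2.80% of 12471 genes. Against KO females, members were lower by 0.27 to 0.59, with an unadjusted p of 0.0187 for Cd74 and 0.0415 for H2-DMa and 0 of 7 called (edgeR, adjusted p of 0.777 or more), where 0.0162% of 12351 genes were called and 5.74% had an unadjusted p under 0.05. Cd74 was 44.5, 66.6 and 69.3 CPM in HepKO against 98.2, 73.5 and 82.2 CPM in KO. Cd74 and H2-DMa, 2 of 7, did not overlap, where 5.05% of genes were lower without overlap. HepKO female 13 had the lowest class II sum of all libraries, 98.2 CPM, and the highest summed Kupffer cell markers, 812 CPM.

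The wider pathway was read from lists around these genes. Of 11 MHC class I genes tested, 0 were called in the resolution comparison of WT males (median log2 difference 0.02) or of KO females (0.11). Of 8 loading and chaperone genes, Marchf1, the ligase that removes class II from the surface, rose in WT males (0.38, adjusted p = 0.0406), and Lgmn, a protease that cuts the invariant chain, rose in KO females (0.38, adjusted p = 0.0472). Of 7 partners of CIITA, Rfx5 (0.60, adjusted p = 0.0257) and Rfxank (0.77, adjusted p = 0.0263), subunits of RFX, rose in WT males, and Nfya, a subunit of NF-Y, fell by 0.58 in KO females (adjusted p = 0.0247). Of the genes between interferon gamma and CIITA, Irf8, a factor of myeloid cells, was the 1 of 11 that rose in WT males (0.77, adjusted p = 0.0176). In KO females 4 of 10 rose: the chemokines Cxcl9 (1.83, adjusted p = 0.0196) and Cxcl10 (1.66, adjusted p = 0.0314), the GTPase Gbp2 (1.53, adjusted p = 0.0337) and Irf8 (1.05, adjusted p = 0.00409). Of 8 co-stimulation and T cell genes, the receptor Cd28 rose in both, by 1.70 in WT males (adjusted p = 0.0323) and 1.3 in KO females (adjusted p = 0.0244), with Cd83 (0.64) in the former and Cd80 (1.70), a ligand of CD28, in the latter, whereas Cd4 fell by 1.42 in WT males (adjusted p = 0.00636). All these adjusted p values are from edgeR over all genes. Of all genes tested, 11.0% were called in WT males and 20.4% in KO females. A single gene called of 8, 7 or 11 is near or below these shares.

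Some markers of class II-bearing cells were called in the same comparisons, and in bulk liver fewer cells of a type and less RNA per cell cannot be told apart. In WT males the summed dendritic cell markers were 14.8 to 17.7 CPM on WDA and 22.3 to 25.1 CPM after resolution, without overlap. Of 6 tested, Itgax (1.96, adjusted p = 0.0451) and Flt3 (1.37, adjusted p = 0.0483) rose, as did 3 of 9 monocyte and recruited macrophage markers, including Ccr2 (1.40, adjusted p = 0.0400) and Lyz2 (0.95, adjusted p = 0.0115), and 3 of 7 T and NK cell markers, including Cd8a (1.94, adjusted p = 0.0406), while Cd4 of that list fell by 1.42, as given above. These shares stand beside the 11.0% of all genes called in that comparison. Of the remaining lists, 0 of 8 Kupffer cell, 0 of 6 B cell, 0 of 4 plasma cell, 0 of 6 stellate cell and 0 of 6 hepatocyte markers were called, 1 of 3 cholangiocyte markers rose (Sox9), and of 6 sinusoidal markers 1 rose (Lyve1) and 1 fell (Oit3). In KO females the dendritic cell sum was 15.4 to 17 CPM on WDA and 17.7 to 27.4 CPM after resolution, and the monocyte and macrophage sum was 109 to 124 against 134 to 172 CPM. Of single markers there, Itgax (2.04, adjusted p = 0.0199) rose as 1 of 5 dendritic cell markers, Trem2 (1.85, adjusted p = 0.0167) and Lyz2 (0.51) as 2 of 9 monocyte and macrophage markers, and Marco (2.07) and Vsig4 (0.79) as 2 of 8 Kupffer cell markers. Cd79b rose as 1 of 7 B cell markers, 1 of 4 plasma cell markers rose and 1 fell, 1 of 6 stellate cell and 2 of 6 hepatocyte markers rose, and 0 of 5 T and NK cell, 0 of 6 sinusoidal and 0 of 3 cholangiocyte markers were called. The shares of 1 of 5, 2 of 9, 2 of 8 and 1 of 7 are near the 20.4% of all genes called in that comparison. The part of these cells in the class II difference was not tested. No marker was at 0 in every library; the plasma cell receptor Tnfrsf17 was at 0 in 22 of 27.

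Across all 27 libraries the mean z score of the members followed the dendritic cell sum most closely of the 10 marker lists (Pearson's r = 0.90), then monocytes and macrophages (0.80), cholangiocytes (0.74), T and NK cells (0.66), B cells (0.65) and stellate cells (0.55). For hepatocytes (-0.21), Kupffer cells (-0.32), sinusoidal endothelium (-0.43) and plasma cells (-0.47) it was negative. Over the 22 libraries that were not marker-rich, r was 0.84 for T and NK cells, 0.77 for dendritic cells, 0.58 for B cells, 0.46 for monocytes and macrophages, 0.27 for cholangiocytes and close to 0 (0.0027) for stellate cells. There it turned positive for hepatocytes (0.19), sinusoidal endothelium (0.16) and Kupffer cells (0.073) and stayed negative for plasma cells (-0.36). The dendritic cell sum was mostly Zbtb46, with a median of 8.35 CPM and r = 0.017 with the members, and Itgax, which reached 37.5 CPM and had r = 0.88. The r of this list is therefore not that of each of its markers, and it does not single out dendritic cells. The plasma cell sum was almost all Sdc1 and Xbp1, which hepatocytes also express. Lymphocyte markers were scarce, at 3.83 to 16.5 CPM summed for T and NK cells and 4.29 to 19.1 CPM for B cells, and libraries and their depth are shared by all these values.

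**Figure D4:**
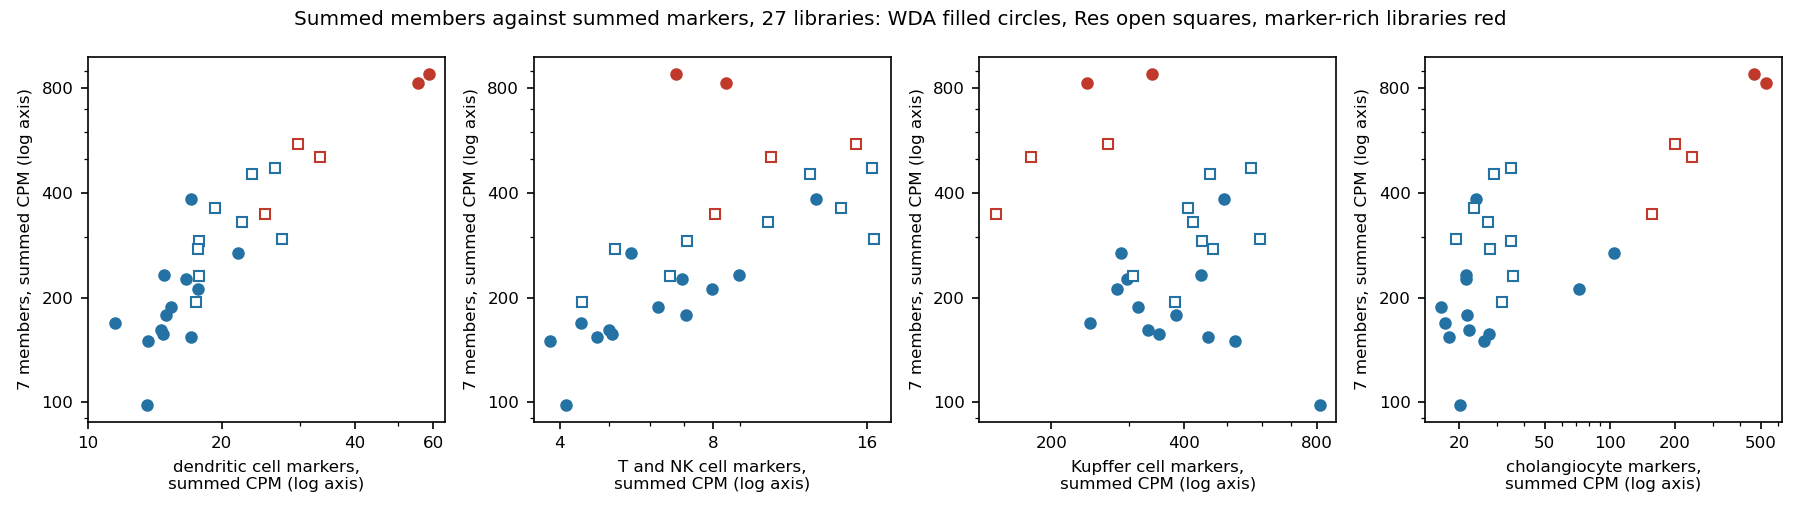
Summed CPM of the 7 members (y axis, log) against the summed CPM of 4 marker lists (x axes, log) in 27 libraries; circles are WDA and squares Res, and the 5 marker-rich libraries are red. The mean z score of the members, not plotted, has r = 0.90 with the dendritic cell sum, or 0.77 without the marker-rich libraries. In the same order r is 0.66 and 0.84 for T and NK cells, -0.32 and 0.073 for Kupffer cells and 0.74 and 0.27 for cholangiocytes. The library with the highest Kupffer cell sum, 812 CPM, has the lowest member sum, 98.2 CPM.

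Among 11902 genes with a mean log2 CPM of at least 0, Clec7a, which encodes the beta-glucan receptor Dectin-1 of myeloid cells, had the pattern most like that of the members (r = 0.93 over 27 libraries). Sema4d, Cyp4f18, Itgax (the integrin CD11c, on the dendritic cell list here), Parvg, Napsa, Slamf7, Otulinl, Slamf8 and Glipr1 followed, at 0.88 to 0.90. For deviations from the group means Clec7a again led (0.93), and Parvg, Prkcd, Coro1a, Tnip1, Sema4d, Bcl2a1b, Cotl1, Pkm and Capg came next (0.90 to 0.91). Over the 22 libraries that were not marker-rich, 1 of the first 10 genes, Clec7a, stayed among the first 10. There the leading genes were Tgtp1 (0.91), Ifi47 (0.86) and Igtp (0.85), GTPases that interferon gamma induces. Itgb7 (0.85), Apol9a (0.84), Clec7a (0.83) and Ugdh (0.83) came next. Irgm1 (0.82), the interferon gamma-induced chemokine Cxcl9 (0.82) and Lilr4b (0.82) completed the 10.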

How the data were processed

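Processed RNA-seq tables of 27 mouse livers were used. Per the labels and the methods, the authors extracted total RNA, had it sequenced on a BGI platform, aligned reads with HISAT to the genome (GRCm38.p6) and with Bowtie2 to reference genes (tool versions are not given in the sources used here) and deposited, in 4 tables by experiment and sex, an expected (estimated) count and an FPKM value per gene and library. Of the deposited estimated count values, 7.34 to 8.09% per table were not whole; they were rounded. The tables list 16588 to 16725 genes each, and 15756 genes are in all 4. A gene missing from a table was taken to have no counts in that table's libraries, before the filter described below. Each group held 3 mice, and p-values measure the spread between these mice.

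Counts were filtered (filterByExpr, minimum count 10), TMM-scaled and tested with edgeR 4.0.16 (glmQLFit, glmQLFTest; R 4.3.3) over all genes, with Benjamini-Hochberg adjustment and a threshold of 0.05, in fits of the groups compared only. Fits over both sexes or stages took sex, stage and vector as covariates. CPM are TMM-scaled over the 27 libraries; log2 CPM used a prior count of 2. Alternatives were RLE scaling, library totals, DESeq2 1.42.0, no filter, 1 spread for 9 groups, limma 3.58.1 on log2(FPKM + 0.1), leaving out each library, and leaving out 5 marker-rich libraries. The last, and 3 interaction tests, were chosen after seeing the data. The edgeR step was tested on simulated data. The members and lists were chosen with earlier results of these data known. Of each list, up to 4 called genes were named, not always those with the largest change. Likeness was Pearson's r with the mean z score of the members' log2 CPM. Promoter sequences are from RefSeq tables on GRCm38.p6.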

Additional observations from a re-analysis of the deposited data

How the results depend on the processing

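Counts of members called by edgeR were the same under RLE scaling, library totals, DESeq2, no filter and limma on log2(FPKM + 0.1) in all 19 comparisons. With 1 spread shared by 9 groups, the 4 calls of Res against WDA in WT males and the 5 in KO females became 0 and 0. Without the 5 marker-rich libraries, which include the livers highest in the members, calls rose from 0 to 5 for Res against WDA over 24 libraries and from 0 to 5 for female against male. Leaving out 1 library gave 1 to 4 members called in WT males, 1 to 5 in KO females, 0 to 2 for stage over 24 libraries and 0 to 1 for female against male; the cause was not tested.

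Without the marker-rich libraries, members also changed sign elsewhere, with 0 of 7 called before and after: the number higher went from 0 to 7 for Res against WDA in WT females, 0 to 4 in KO males, 2 to 7 for KO against WT in Res females, 6 to 2 in Res males, and 1 to 7 for the KO by sex difference after resolution. For KO against WT with both sexes in the fit, that number went from 5 to 7 at each stage. For the KO by stage difference it went from 3 to 1.

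Member by member, signs turned as follows in 2 of the 8 comparisons for which each alternative was followed per member. For KO against WT in WDA females without marker-rich female 7, log2 differences were 0.14 (H2-Aa), 0.15 (H2-Ab1), 0.039 (H2-Eb1), 0.076 (H2-DMa), 0.30 (Cd74) and 0.20 (Ciita), and leaving out 1 library gave -1.76 to 0.14, -1.59 to 0.15, -1.88 to 0.039, -0.90 to 0.076, -1.32 to 0.30 and -1.69 to 0.20 in that order. For stage over 24 libraries, library totals gave -0.047 (H2-Ab1) and -0.041 (H2-DMa); H2-DMb1 was 0.043 with the shared spread, 0.14 with limma and 0.38 without marker-rich libraries; leaving out 1 library gave -0.010 to 0.25 (H2-DMa) and -0.13 to 0.29 (H2-DMb1).

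No paired analysis was possible because mouse numbers that recur between experiments 11 and 12 belong to different mice. With 3 mice per group, differences within the confidence intervals given were not detectable, and Ciita, at 20 to 237 counts, was the least precise member.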
